A study of Mus musculus with 42 samples.

Results

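The dose of acute hypoxia was the question here. The retinas of 6 mice that had breathed 7% oxygen for 6 h (07-06h-ZH) were compared directly with those of 6 mice that had breathed 14% oxygen for 6 h (14-06h-ZH), gene by gene, on the deposited FPKM values (fragments per kilobase of transcript, scaled to library size). These are 12 of the 42 mice of the series, chosen by oxygen level and duration alone. All were wild-type C57BL/6J mice kept at 400 masl (meters above sea level) and placed in isobaric chambers in which oxygen was lowered in steps, and 1 retina per mouse was sequenced. At the start the 7% mice were 10 weeks old and the 14% mice 9 to 11 weeks. The Normoxia group (21% oxygen, 6 mice, 9.5 weeks old at the start of 11 weeks in the facility) and the 6 mice kept at 14% oxygen for 48 h (14-48h-ZH) serve only to place the levels. The libraries carry code series in their labels. The series is EM4440 for 07-06h-ZH, EM4493 for 14-06h-ZH and 14-48h-ZH, and EM4365 for Normoxia, so oxygen dose and code series cannot be told apart in the direct comparison.

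Where reads could be recovered from the table (5 libraries per group) the 7% libraries held 15927274 to 21388426 reads in genes and the 14% libraries 16660634 to 19416898. Y-linked genes were expressed in replicates 1, 2 and 3 of each compared group and in all 6 mice of Normoxia. Rod markers, which define the mouse retina, summed to 57590 to 62160 FPKM at 7% and 59630 to 66650 at 14%, and the overall profiles of mice from different groups correlated at 0.9744 to 0.9862 (Pearson's r across genes of log2(FPKM + 0.1)), and those of mice from the same group at 0.9847 to 0.9947. Some libraries stood apart in markers of tissue outside the neural retina. The source of these transcripts was not tested, and the study allows that crystallin levels may partly reflect the retina itself. The 16 lens markers summed to 32910, 19250 and 21640 FPKM in replicates 3, 4 and 6 of the 14% group, against 48.4 to 291 in the other three and 2.69 to 166 at 7%. The 6 red blood cell markers summed to 1877, 822 and 1285 FPKM in replicates 1, 2 and 3 of the 7% group, to 87.6 to 198 in the others, and to 33.7 to 83.3 at 14%. The 3 haemoglobin-rich mice were thus the 3 of their group with Y-linked expression, and these features cannot be told apart. The 14 pigment cell markers summed to 389 to 831 FPKM at 7% and 206 to 726 at 14%, and the 15 markers of cornea and conjunctiva to 5.22 to 17.5 and 19.5 to 88.5. Retinas had been taken out through a slit in the cornea. In bulk tissue, fewer cells of a type and less RNA per cell cannot be told apart.

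**Figure D1:**
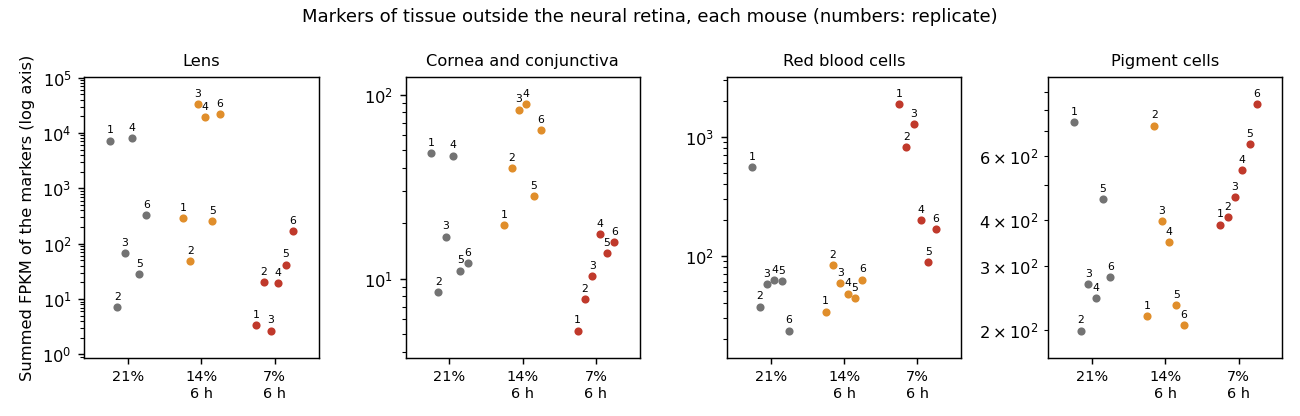
Summed FPKM (log axis) of the markers of lens, cornea and conjunctiva, red blood cells and pigment cells in each mouse of Normoxia (21%), 14-06h-ZH and 07-06h-ZH, with replicate numbers beside the points. Replicates 3, 4 and 6 at 14% reach 19250 to 32910 for lens, and replicates 1, 2 and 3 at 7% reach 822 to 1877 for red blood cells.

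Cells sense oxygen through the prolyl hydroxylases of the EGLN family. In normal oxygen these enzymes mark the alpha subunits of hypoxia-inducible factors (HIFs) for destruction by the VHL ubiquitin ligase, and when oxygen falls the subunits persist, pair with ARNT and bind the core motif ACGTG near their target genes. The targets carry glucose uptake, glycolysis and lactate export, reshape mitochondria, and send vascular signals. The retina, whose rods consume much oxygen, is known for a high rate of glycolysis.

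Promoter windows of the 4 members with the largest increase at 7% that had an entry, over the lists for HIF pathway, mitochondria, glycolysis and angiogenic factors, are shown first, since HIF targets of this kind are what the comparison of oxygen doses asks about. Windows of Higd1a and Bnip3, which lead the mitochondrial list apart from Ero1l, were added after their values had been seen. Each runs from 250 bases before to 50 bases after the gene start (RefSeq, GRCm38.p6), and capitals mark ACGTG on either strand.
Apln (chrX:48034804-48035103, minus strand): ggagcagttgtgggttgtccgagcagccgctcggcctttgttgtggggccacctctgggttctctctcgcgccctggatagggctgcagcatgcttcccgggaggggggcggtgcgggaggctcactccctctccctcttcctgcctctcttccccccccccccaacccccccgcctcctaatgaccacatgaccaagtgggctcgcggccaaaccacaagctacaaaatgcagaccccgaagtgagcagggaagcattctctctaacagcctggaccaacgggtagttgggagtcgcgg
Adm (chr7:110627407-110627706, plus strand): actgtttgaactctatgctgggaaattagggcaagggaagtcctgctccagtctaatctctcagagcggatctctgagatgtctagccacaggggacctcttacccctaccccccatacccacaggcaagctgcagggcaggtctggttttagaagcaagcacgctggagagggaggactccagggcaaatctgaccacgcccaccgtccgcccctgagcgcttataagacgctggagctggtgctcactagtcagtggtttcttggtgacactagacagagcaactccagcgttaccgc
Egln1 (chr8:124949205-124949504, minus strand): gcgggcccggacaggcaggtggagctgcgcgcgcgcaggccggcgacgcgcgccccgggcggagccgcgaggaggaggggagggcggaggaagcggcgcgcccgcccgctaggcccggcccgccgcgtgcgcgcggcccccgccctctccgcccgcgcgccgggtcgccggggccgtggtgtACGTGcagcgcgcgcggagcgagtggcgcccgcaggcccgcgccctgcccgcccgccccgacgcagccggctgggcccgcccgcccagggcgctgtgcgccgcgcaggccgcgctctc
Edn2 (chr4:120160956-120161255, plus strand): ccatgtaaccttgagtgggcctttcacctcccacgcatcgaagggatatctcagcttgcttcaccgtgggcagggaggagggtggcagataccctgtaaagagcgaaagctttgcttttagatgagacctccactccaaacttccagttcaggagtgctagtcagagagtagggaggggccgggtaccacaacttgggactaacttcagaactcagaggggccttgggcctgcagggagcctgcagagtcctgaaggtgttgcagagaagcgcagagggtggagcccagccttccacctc
Higd1a (chr9:121857747-121858046, minus strand): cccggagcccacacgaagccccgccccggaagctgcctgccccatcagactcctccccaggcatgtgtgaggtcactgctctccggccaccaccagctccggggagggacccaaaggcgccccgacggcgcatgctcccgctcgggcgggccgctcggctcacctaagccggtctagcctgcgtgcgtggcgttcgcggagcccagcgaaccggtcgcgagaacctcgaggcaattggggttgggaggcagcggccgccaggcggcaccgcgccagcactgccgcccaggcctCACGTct
Bnip3 (chr7:138909457-138909756, minus strand): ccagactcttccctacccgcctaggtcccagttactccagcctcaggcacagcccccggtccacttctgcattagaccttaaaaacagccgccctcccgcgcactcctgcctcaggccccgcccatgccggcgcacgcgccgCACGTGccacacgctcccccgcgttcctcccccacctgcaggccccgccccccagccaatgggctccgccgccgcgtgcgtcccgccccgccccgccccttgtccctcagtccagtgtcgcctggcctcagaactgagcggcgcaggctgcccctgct
The motif lay in the windows of Egln1, Higd1a and Bnip3, the last with CACGTG, which reads as the motif on both strands, and was absent from those of Apln, Adm and Edn2. It was found in 19.6% of the 32851 windows in the table and in 27.3% of the 12270 tested genes with a window. Of 75 members of the 4 lists with a window 35 held it (46.7%), and of the 48 of these that were higher at 7% 29 did (60.4%). Over all genes the share was 24.4% of those called higher (79 of 324) and 16.3% of those called lower (16 of 98), both under that of the tested genes. These shares describe the windows and were not tested.

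The direct comparison found many genes that differed. Of 17026 genes tested, 7735 differed (45.4%), 4392 (25.8%) being higher and 3343 (19.6%) lower at 7% at an adjusted p of at most 0.05 (limma on log2(FPKM + 0.1), Benjamini-Hochberg), and the 12 values did not overlap between the groups for 24.3% of genes. With the added demand of at least a doubling or halving (absolute log2 fold change of at least 1), which makes a gene called, 484 (2.84%) were higher and 172 (1.01%) lower, together 3.85% of the genes. The shares of 25.8% higher and 19.6% lower are the background for the counts of each list below. The median log2 fold change over all genes was 0.03. Without the 3 lens-rich mice of the 14% group the calls were 431 higher and 99 lower, and without the 3 haemoglobin-rich mice of the 7% group 515 and 201. The number of lower calls thus moved by more than 1.5 times with the lens-rich mice. Fold changes below are log2 fold changes of 7% over 14% with their standard error, and levels are FPKM.

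**Figure D2:**
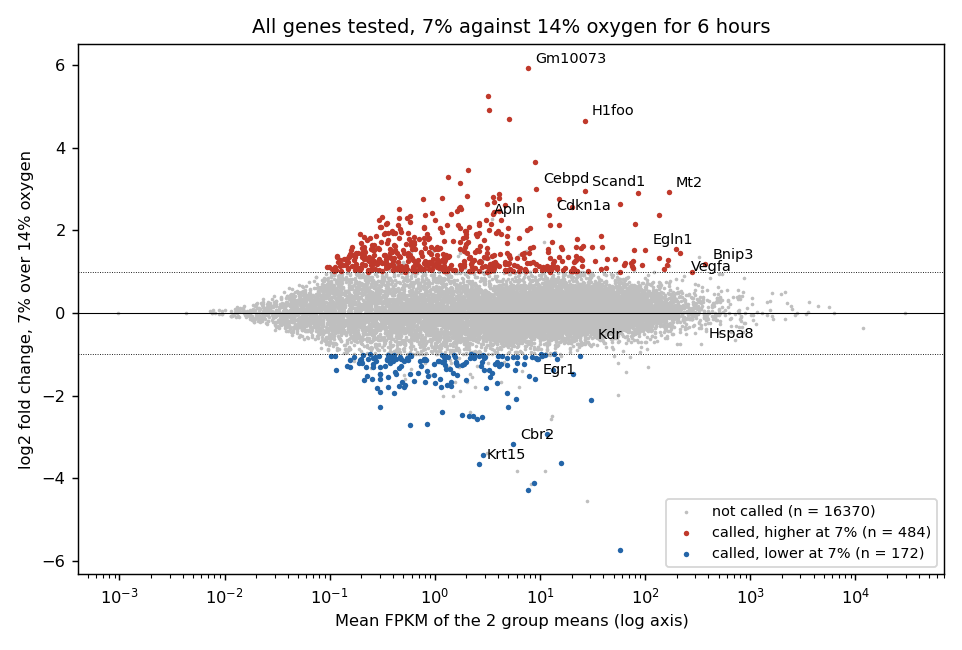
log2 fold change of 7% over 14% oxygen against the mean FPKM of both groups (log axis) for the 17026 genes tested. Red points are the 484 genes called higher at 7%, blue points the 172 called lower, and dotted lines mark the threshold of 1. Hypoxia genes such as Egln1 (1.53) and Bnip3 (1.18) lie among abundant transcripts, and Gm10073 has the largest increase (5.93).

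Members of the oxygen sensing machinery were higher at the lower dose of oxygen. Of 15 tested genes of the HIF pathway 10 were higher and 2 lower, with a list median of 0.41. Egln1, the prolyl hydroxylase that limits HIF and is itself a HIF target, had levels between 141 and 155 FPKM at 7%, median 151, and between 46.7 and 58.9 at 14%, median 50.8. The groups were far apart, with every mouse at 7% above every mouse at 14% (log2 fold change 1.53 ± 0.05, adjusted p = 1.7e-11). The normoxic median of Egln1 was 25.2, so its level was 1.05 above normoxia (log2) at 14% and 2.58 at 7%, each from its own fit with the same normoxic mice. Ankrd37, a small ankyrin-repeat protein induced by HIF, was between 56.6 and 70.4 FPKM at 7%, median 61.8, and between 27.8 and 39.9 at 14%, median 32.5 (log2 fold change 0.94 ± 0.07, adjusted p = 4.9e-08), and its 14% median was close to the normoxic 28.4. Vhl, the ubiquitin ligase subunit, was higher by 0.41 ± 0.05, without overlap.
For a pair of regulators the 14% mice also lay below normoxia. Cited2, which competes with HIF for its coactivator, had medians of 106 at 7%, 68.4 at 14% and 97.4 in normoxia (log2 fold change 0.63 ± 0.05, adjusted p = 1.6e-07 for 7% over 14%). Bhlhe41, a clock-linked repressor, had medians of 66.4, 40.5 and 49.1 (0.65 ± 0.05). For both genes 14-48h-ZH, which shares the code series of 14-06h-ZH, was low as well, at 68.8 and 43.5.

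Most mitochondrial HIF targets were higher at 7%. Of 14 members 11 were higher at 7% and 0 lower, 4 of them called, and the list median was 0.67 against 0.03 over all genes. Higd1a, a factor that helps cytochrome oxidase work in low oxygen, was between 188 and 199 FPKM at 7%, median 194, and between 72.6 and 86.8 at 14%, median 75.2. These 12 values hardly varied within a group (log2 fold change 1.33 ± 0.05, adjusted p = 1.6e-11), and the 14% median lay near the normoxic 65.2. Bnip3, a mitophagy receptor, was between 462 and 579 FPKM at 7%, median 509, and between 198 and 251 at 14%, median 228, again without overlap (log2 fold change 1.18 ± 0.06, adjusted p = 9.2e-10), with a normoxic median of 153. Ero1l, the oxidase that forms disulfide bonds in the endoplasmic reticulum, was between 90.2 and 115 FPKM at 7%, median 102, and between 41.1 and 48.2 at 14%, median 44.3 (log2 fold change 1.21 ± 0.06, adjusted p = 4.8e-10). Fam162a, a HIF-responsive mitochondrial protein, rose from 57.1 to 129 in median (log2 fold change 1.16 ± 0.07, adjusted p = 2.8e-09).
Ak4 and Pdk1 stood well above normoxia already at 14% oxygen. Ak4, a mitochondrial adenylate kinase, had medians of 16.1 in normoxia, 40.5 at 14% and 68.2 at 7% (0.82 ± 0.06 for 7% over 14%). Pdk1, the kinase that shuts pyruvate dehydrogenase, had medians of 31.1, 57.3 and 91.8 (log2 fold change 0.67 ± 0.06, adjusted p = 1.2e-07).

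Glycolytic genes were higher at 7% by small amounts. Of 33 tested members 23 were higher and 1 lower, 2 and 1 of them called, with a median of 0.32. The list median over normoxia was 0.29 at 14% and 0.56 at 7%. Slc16a3, the lactate exporter MCT4, was between 112 and 145 FPKM at 7%, median 127, and between 61.5 and 79.8 at 14%, median 70.0 (log2 fold change 0.85 ± 0.07, adjusted p = 8.7e-08), with a normoxic median of 24.7. Eno1, an enolase, was between 2402 and 2610.0 FPKM at 7%, median 2508, and between 1553 and 1908 at 14%, median 1750.0 (log2 fold change 0.52 ± 0.05, adjusted p = 1.7e-07). Ldha, the lactate dehydrogenase subunit that favors lactate, differed by 0.48 ± 0.04, Pgk1, a phosphoglycerate kinase, by 0.49 ± 0.06, and Slc2a1, the glucose transporter GLUT1, by 0.43 ± 0.06, and in none of these did the groups overlap.
Genes of glucose storage and release belong to this list. Slc37a4, which carries glucose 6-phosphate into the endoplasmic reticulum, was between 57.1 and 67.4 FPKM at 7%, median 60.9, and between 21.9 and 27.3 at 14%, median 24.9 (log2 fold change 1.30 ± 0.06, adjusted p = 2.7e-10), and its 14% median lay near the normoxic 20.8. Gys1, a glycogen synthase, was between 24.5 and 33.7 FPKM at 7%, median 25.7, and between 12.6 and 14.4 at 14%, median 13.4 (log2 fold change 1.02 ± 0.08, adjusted p = 3.0e-08). Pgm2, a phosphoglucomutase, differed by 0.80 ± 0.05.
Mitochondrial carbon use showed no common direction. Of 32 genes of pyruvate entry, the TCA cycle and its shuttles 8 were higher and 7 lower, all by less than a doubling. Ogdh, the oxoglutarate dehydrogenase (-0.37 ± 0.04), and Got1, an aspartate transaminase (-0.38 ± 0.05), were lower at 7%. The pyruvate carriers Mpc1 (0.29 ± 0.05) and Mpc2 (0.46 ± 0.06) and Idh3b (0.30 ± 0.04) were higher than at 14%. Mpc1 ran from 32.8 to 37.1 FPKM at 7%, 27.1 to 30.6 at 14%, 28.65 to 32.3 in 14-48h-ZH and 32.3 to 40.5 in normoxia. Idh3b ran from 127 to 141, 103 to 115, 106.5 to 116 and 133 to 145 in the same order. For both genes the 7% mice were near normoxia, and both groups of series EM4493 lay mostly lower. For Mpc2 the medians were 22.3 at 7%, 16.2 at 14% and 27.0 in normoxia, so both doses lay below the normoxic mice. Its levels in 14-48h-ZH ran from 16.5 to 18.65. Median-of-ratios scaling of the libraries turned the split of this list to 5 higher and 10 lower.

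**Figure D3:**
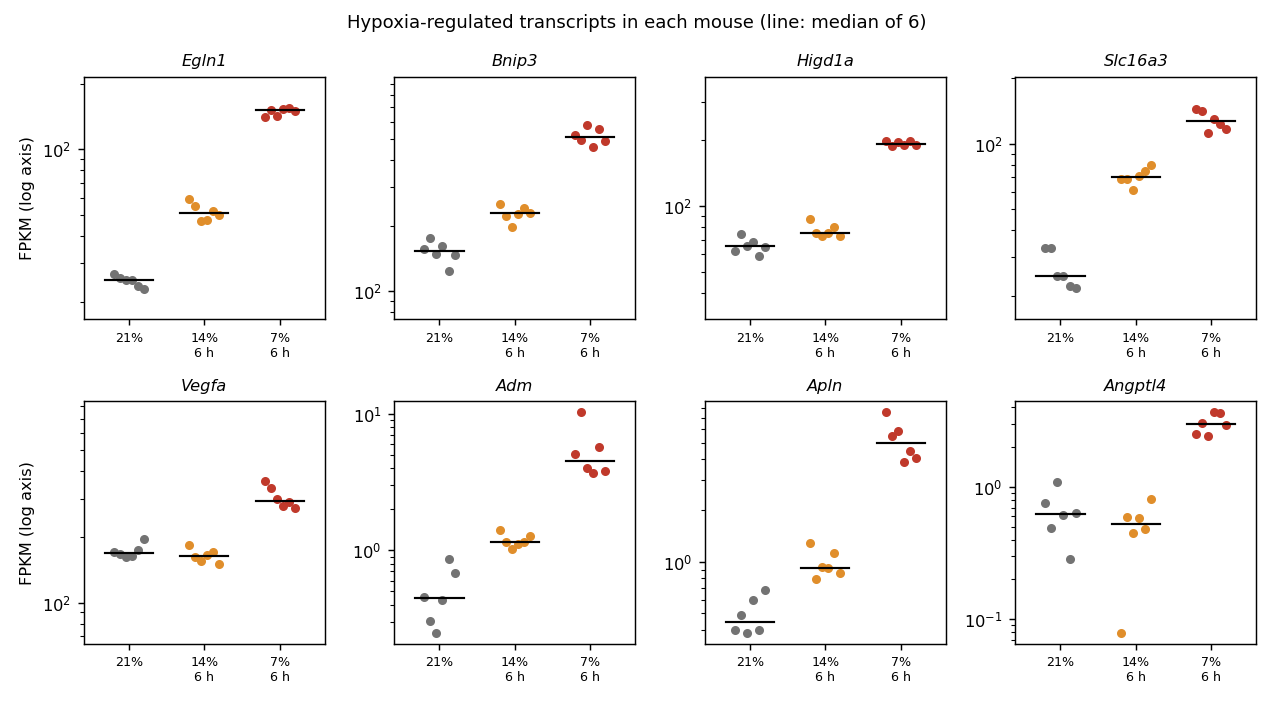
FPKM (log axis) of 8 hypoxia-regulated transcripts in each mouse of Normoxia (21%), 14-06h-ZH and 07-06h-ZH, with the median of 6 as a line. The 7% mice lie above all 14% mice in every panel, and the 14% median of Vegfa (163) and Higd1a (75.2) lies near that of normoxia.

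Among vascular signals several secreted factors were higher at 7% and the endothelial receptors Kdr and Tek lower. Over the list 11 of 26 genes were higher and 6 lower, with 6 called higher. Vegfa, the main growth factor of retinal vessels, was between 273 and 360.3 FPKM at 7%, median 294, and between 150.5 and 184 at 14%, median 163 (log2 fold change 0.89 ± 0.07, adjusted p = 3.9e-08), which is just under the threshold of a call. Its normoxic median was 168, so at 14% it stood at the normoxic level. Adm, the vasodilator adrenomedullin, was between 3.66 and 10.2 FPKM at 7%, median 4.54, and between 1.02 and 1.42 at 14%, median 1.15. One mouse at 7% (replicate 2) was the highest, and even the lowest of that group lay above the highest at 14% (log2 fold change 2.01 ± 0.20, adjusted p = 7.2e-07). Apln, the ligand of the apelin receptor on endothelium, was between 3.82 and 7.5 FPKM at 7%, median 4.98, and between 0.793 and 1.29 at 14%, median 0.923 (log2 fold change 2.27 ± 0.16, adjusted p = 2.7e-08), and Angptl4, a secreted inhibitor of lipoprotein lipase, between 2.42 and 3.66 FPKM at 7%, median 2.99, and between 0.0792 and 0.811 at 14%, median 0.53 (log2 fold change 2.52 ± 0.30, adjusted p = 4.9e-06). Edn2, an endothelin made by stressed photoreceptors in mice, was between 7.18 and 12.8 FPKM at 7%, median 9.39, and between 2.27 and 8.03 at 14%, median 2.85 (log2 fold change 1.43 ± 0.30, adjusted p = 0.002), and 1 mouse at 14% reached into the range of the 7% group.
Kdr, the receptor of VEGFA on endothelium, was between 19.8 and 25.6 FPKM at 7%, median 22.2, and between 36.0 and 39.2 at 14%, median 37.9 (log2 fold change -0.77 ± 0.06, adjusted p = 3.2e-08). All 7% mice were below all 14% mice, and the normoxic median was 40.1. Tek, the angiopoietin receptor, was lower (log2 fold change -0.90 ± 0.20, adjusted p = 0.0014), with overlap, and without the 3 haemoglobin-rich mice its estimate was -0.56. Of 12 endothelial markers 3 were lower and 3 higher, among the latter Pecam1, an adhesion protein of endothelium (0.59 ± 0.08), and Egfl7, a secreted endothelial protein (0.60 ± 0.11). Kcnj8, a potassium channel of pericytes, was between 1.72 and 2.37 FPKM at 7%, median 1.92, and between 0.913 and 1.2 at 14%, median 1.1 (log2 fold change 0.78 ± 0.12, adjusted p = 8.2e-05). It was the only 1 of 10 tested smooth muscle and pericyte markers that was higher, while 3 were lower, with a list median of -0.29.

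Of 15 oxygen-dependent demethylases and related enzymes 4 were higher and 3 lower, close to the 25.8% and 19.6% of all genes. Jmjd6, a lysyl hydroxylase of that family, was between 71.3 and 76.0 FPKM at 7%, median 74.7, and between 36.7 and 46.0 at 14%, median 42.0 (log2 fold change 0.83 ± 0.05, adjusted p = 4.0e-09), with a normoxic median of 42.4. The histone demethylases Kdm4b (0.64 ± 0.05), Kdm3a (0.52 ± 0.04) and Kdm6b (0.58 ± 0.09) were higher too, and Kdm3b was lower (-0.25 ± 0.05). Of 12 collagen-modifying enzymes 5 were higher and 1 lower. P4ha2, a collagen prolyl hydroxylase, differed by 0.86 ± 0.16, Plod2, a lysyl hydroxylase, by 0.61 ± 0.12, and P4hb, the common beta subunit, by 0.24 ± 0.04. Plod3, another lysyl hydroxylase (0.30 ± 0.07), had an estimate of 0.19 after correction for GC content and no longer passed without the haemoglobin-rich mice (0.19).
Tfrc, the transferrin receptor that brings iron into cells, was between 183 and 258 FPKM at 7%, median 224, and between 86.2 and 108 at 14%, median 96.5. The groups were far apart (log2 fold change 1.18 ± 0.08, adjusted p = 2.8e-08), and the 14% median lay near the normoxic 107. Hmox1, which breaks down haem, was between 7.95 and 13.8 FPKM at 7%, median 10.5, and between 3.74 and 4.92 at 14%, median 4.57 (log2 fold change 1.2 ± 0.14, adjusted p = 2.4e-06). Fth1, the ferritin heavy chain, had medians of 533 at 7%, 430.2 at 14% and 514 in normoxia (0.36 ± 0.04). Steap3, an iron reductase (-0.61 ± 0.15), and Cp, ceruloplasmin (-0.35 ± 0.09), were lower, but neither passed the test without the lens-rich mice (-0.53 and -0.18). Epo, erythropoietin, was called higher (1.33 ± 0.23), with medians of 3.58 at 7%, 1.08 at 14%, 1.32 in 14-48h-ZH and 2.58 in normoxia, and was chosen for mention after its values had been seen.

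**Figure D4:**
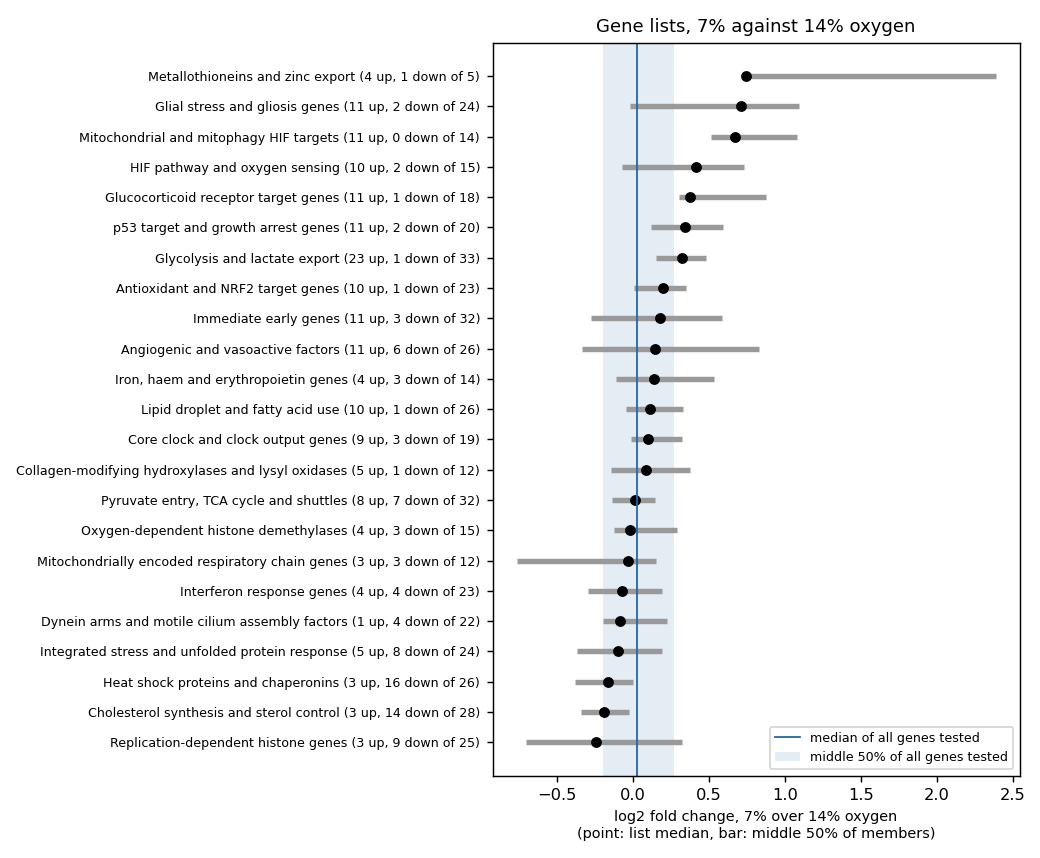
Median log2 fold change of 7% over 14% oxygen (points) and the middle 50% of members (bars) for 23 gene lists, with the number of members higher and lower at an adjusted p of at most 0.05. The blue line is the median of all genes tested (0.03). Metallothioneins (0.74), glial stress genes (0.71) and mitochondrial HIF targets (0.67) lie highest, and replication-dependent histones (-0.24) lowest.

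Beyond the lists above, the 7% mice differed in metallothioneins, small proteins that bind zinc and copper and respond to metals, glucocorticoids and oxidative stress. Whether HIF has a part in their levels was not tested. Mt2 was between 219 and 350.2 FPKM at 7%, median 293, and between 30.3 and 61.4 at 14%, median 34.7 and Mt1 between 195 and 271 FPKM at 7%, median 228, and between 34.9 and 70.4 at 14%, median 39.8. For both genes every 7% mouse stood well above the highest 14% mouse (log2 fold change 2.93 ± 0.18, adjusted p = 3.0e-07 for Mt2 and log2 fold change 2.39 ± 0.16, adjusted p = 4.1e-07 for Mt1). Normoxic medians were 31.4 and 38.6, close to those at 14%. Mt3, the metallothionein of the nervous system, differed by 0.74 ± 0.10, and by 0.41 after correction for GC content. Slc30a1, a zinc exporter, was higher (0.73 ± 0.07) and Slc39a10, a zinc importer, lower (-0.64 ± 0.07).

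Genes of glial stress and acute-phase signaling were higher at 7%. Of 24 members 11 were higher and 2 lower, with 6 called and a median of 0.71. Without the haemoglobin-rich mice of the 7% group 7 were higher and 2 lower, and the median was 0.345. Cebpd, a transcription factor of the acute-phase response, was between 6.16 and 26.8 FPKM at 7%, median 17.0, and between 1.32 and 2.32 at 14%, median 1.84 (log2 fold change 3.01 ± 0.30, adjusted p = 6.6e-06). Lcn2, lipocalin-2, an iron-carrier protein released by reactive glia, was between 15.8 and 35.0 FPKM at 7%, median 25.3, and between 4.12 and 6.9 at 14%, median 5.39 (log2 fold change 2.14 ± 0.21, adjusted p = 6.3e-06). Osmr, the oncostatin M receptor, was between 4.15 and 9.99 FPKM at 7%, median 7.44, and between 2.39 and 3.53 at 14%, median 2.96 (log2 fold change 1.18 ± 0.17, adjusted p = 4.3e-05), and Stat3, the transcription factor below it, differed by 0.74 ± 0.06. None of these 4 overlapped between the groups. The normoxic medians were 3.18 for Cebpd, 3.73 for Lcn2, 2.86 for Osmr and 41.6 for Stat3, all below those at 7%. For Stat3, which ran from 63.6 to 75.3 FPKM at 7%, this was less than a doubling. For Cebpd the 14% median was also below that of normoxia, and 14-48h-ZH ran from 0.833 to 1.57.
Growth arrest genes were mostly higher as well. Of 20 p53 target and arrest genes 11 were higher and 2 lower, with a median of 0.34. The list median over normoxia was 0.14 at 7% and -0.15 at 14%. Cdkn1a, the cell cycle inhibitor p21, was between 14.9 and 28.5 FPKM at 7%, median 19.8, and between 2.59 and 4.56 at 14%, median 4.24, close to normoxia at 14% (median 4.08) and without overlap at 7% (log2 fold change 2.37 ± 0.16, adjusted p = 3.5e-08). Gadd45b, a stress sensor, was between 11.6 and 24.97 FPKM at 7%, median 21.5, and between 4.6 and 8.29 at 14%, median 5.76 (log2 fold change 1.73 ± 0.18, adjusted p = 5.5e-06). Mdm2, which degrades p53, differed by 0.39 ± 0.05, but Ccng1, a p53-induced cyclin, was lower (-0.49 ± 0.05). Bax, which opens the mitochondrial membrane, was higher by 0.52 ± 0.07, and by 0.09 with correction for GC content, where it no longer passed. Mdm2 ran from 39.8 to 45.4 FPKM at 7%, 28.8 to 35.4 at 14%, 31.25 to 34.6 in 14-48h-ZH and 35.7 to 42.1 in normoxia. Bax ran from 42.5 to 58.0, 34.8 to 36.0, 33.4 to 37.5 and 44.55 to 51.3 in the same order. For both genes normoxia was nearer to 7%.
Targets of the glucocorticoid receptor, through which the stress hormone corticosterone acts in mice, were higher in 11 of 18 cases and lower in 1. All genes gave 25.8% and 19.6%. Fkbp5, a chaperone of the receptor, was between 19.0 and 39.5 FPKM at 7%, median 30.1, and between 10.9 and 15.5 at 14%, median 11.1 (log2 fold change 1.24 ± 0.16, adjusted p = 2.6e-05). Sult1a1, a sulfotransferase, differed by 0.96 ± 0.10 and Errfi1, an inhibitor of the EGF receptor, by 0.40 ± 0.05. Cdkn1a, Lcn2, Ddit4 and Plin4 belong to this list too.
Among antioxidant genes 10 of 23 were higher and 1 lower, with Hmox1 the one called. Gsr, glutathione reductase, differed by 0.46 ± 0.07 and Nfe2l2, the factor NRF2 itself, by 0.38 ± 0.07. Gpx4, which reduces lipid peroxides, had medians of 404 at 7%, 299 at 14% and 468 in normoxia, and its difference fell from 0.39 to 0.19 with GC correction.
Lipid genes were higher in 10 of 26 cases and lower in 1, against 25.8% and 19.6% of all genes. Plin4, a lipid droplet coat protein, was between 1.57 and 3.91 FPKM at 7%, median 2.65, and between 0.29 and 1.13 at 14%, median 0.929 (log2 fold change 1.55 ± 0.27, adjusted p = 1.7e-04). Hilpda, a hypoxia-induced lipase inhibitor (0.60 ± 0.08), Pnpla2, a triglyceride lipase (0.57 ± 0.09), and Dgat2, which makes triglycerides (0.58 ± 0.07), were higher as well.
Of the genes the study itself discusses for 7% oxygen, Selenbp1, a selenium-binding protein, was between 20.54 and 31.6 FPKM at 7%, median 27.3, and between 8.48 and 16.1 at 14%, median 13.4 (log2 fold change 1.02 ± 0.15, adjusted p = 1.0e-04). C3, the central complement protein (-0.0004 ± 0.25), Timp1 (0.59 ± 0.42) and Timp3 (0.68 ± 0.28), inhibitors of matrix proteases, did not pass the test (adjusted p = 1, 0.28 and 0.076).

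In the clock list 9 of 19 genes were higher and 3 lower, where all genes gave 25.8% and 19.6%. Cry1, a repressor of the clock, was between 79.1 and 98.7 FPKM at 7%, median 87.6, and between 48.8 and 59.0 at 14%, median 51.6 (log2 fold change 0.75 ± 0.06, adjusted p = 6.6e-08), and Ciart, another repressor, between 26.3 and 45.5 FPKM at 7%, median 29.1, and between 14.7 and 20.7 at 14%, median 17.8 (log2 fold change 0.83 ± 0.12, adjusted p = 6.3e-05). The nuclear receptors Nr1d1 (-0.48 ± 0.05) and Rorb (-0.87 ± 0.12) were lower. The times of day at which retinas were taken are not given in the sources used here.
Of 32 immediate early genes, which respond within minutes to signaling, 11 were higher and 3 lower, against 25.8% and 19.6% of all genes. The split was 9 and 7 with GC correction and 11 and 1 without the lens-rich mice. Egr1, which follows synaptic and growth factor activity, was between 3.04 and 4.91 FPKM at 7%, median 4.05, and between 6.56 and 25.6 at 14%, median 12.0. It was lower in every 7% mouse (log2 fold change -1.60 ± 0.32, adjusted p = 0.0019), and its normoxic median was 16.4. Maff, a small Maf factor, was between 1.54 and 3.73 FPKM at 7%, median 2.75, and between 0.28 and 1.24 at 14%, median 0.4 (log2 fold change 2.14 ± 0.30, adjusted p = 2.7e-05), and Ier3 differed by 0.56 ± 0.08. Klf2 was higher by 1.29 ± 0.15, with a normoxic median of 2.5 between those of the doses (3.2 and 1.43).

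For some of the leading increases the 14% mice were low and the normoxic mice were nearer to those at 7%. Scand1, a SCAN domain protein, was between 40.1 and 55.3 FPKM at 7%, median 47.2, and between 3.62 and 7.37 at 14%, median 6.6 (log2 fold change 2.95 ± 0.15, adjusted p = 1.1e-08). Its normoxic levels ran from 39.3 to 51.9 (median 44.6) and those of 14-48h-ZH from 4.86 to 7.12 (median 5.71), so the groups of series EM4493 were low and the others high. The same order of groups held for Cebpb, a transcription factor related to Cebpd, with medians of 3.67 at 7%, 0.406 at 14%, 0.432 in 14-48h-ZH and 2.7 in normoxia (log2 fold change 2.83 ± 0.20, adjusted p = 2.1e-08). The AP-1 factors Jund, with medians of 57.2, 18.7, 17.7 and 49.5 in the same order (log2 fold change 1.61 ± 0.08, adjusted p = 1.2e-09), and Junb, with 26.7, 10.3, 9.68 and 24.7 (log2 fold change 1.36 ± 0.18, adjusted p = 4.2e-05), followed it too. The transcripts of these 4 genes have GC contents of 68.4, 67.2, 67.1 and 62.6%. Among genes with a mean of at least 1 FPKM the eighth with the highest GC content (57.4 to 72.8%) had a median log2 fold change of 0.18 and 4.47% called higher, against 0.01 and 1.27% in the eighth with the lowest (28.7 to 42.1%). For the high-GC eighth the median over normoxia was 0.002 at 7% and -0.166 at 14%. With each library corrected for GC content 419 genes were called higher and 190 lower, and the estimates were 2.00 for Scand1, 2.04 for Cebpb, 1.01 for Junb and 0.81 for Jund. What part the code series has in these differences cannot be told apart from that of dose and time.
Copies of housekeeping genes followed the same order. Gm10073 was between 8.2 and 25.3 FPKM at 7%, median 14.2, and between 0 and 0.341 at 14%, median 0.12 (log2 fold change 5.93 ± 0.36, adjusted p = 3.7e-08), with a normoxic median of 5.58 and 0.298 in 14-48h-ZH. Its transcript matches that of the ribosomal gene Rplp1 over its full length at 98.8% identity. Rps27rt (5.26 ± 0.32; medians 5.46, 0.0681 and, in normoxia, 2.68) is near-identical to Rps27, Rpl9-ps6 (4.71 ± 0.28; 8.61, 0.278 and 4.72) to Rpl9, Gm9843 (3.66 ± 0.22; 15.2, 1.31 and 6.33) to Fau, and Gm11273 (4.92 ± 0.46; 6.72, 0.144 and 2.86) to Cox5b. Gm11808 (3.15 ± 0.40) matches, over its full length, a transcript annotated to Olfr77 at 97.1% identity. Reads of such copies can be divided between them and their parents by the counting, so these 6 values are uncertain. Parts of the transcripts of Scand1 (26.7%, shared with Cnbd2), Mt2 (41.5%, Gm45774) and Cebpd (15.0%, Spidr) are shared with overlapping or similar genes too. Among the leading decreases Gm6563 (-1.62 ± 0.16) is a copy of Sarnp, and the medians of Gm6563 were 0.942 at 7%, 2.9 at 14%, 2.94 in 14-48h-ZH and 0.841 in normoxia.
The mitochondrially encoded genes gave no common direction (3 higher and 3 lower of 12), against 25.8% and 19.6% of all genes. The 2 called lower were mt-Co2 and mt-Atp6, which reached at most 0.745 and 0.910 FPKM in the compared mice. mt-Nd3, a subunit of respiratory complex I, had medians of 39.5 at 7%, 12.9 at 14% and 28.1 in normoxia (1.61 ± 0.09), and mt-Nd6, on the other strand, was lower (-0.82 ± 0.15). In 14-48h-ZH mt-Nd3 ran from 13.5 to 17.45 FPKM, low as in 14-06h-ZH.

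**Figure D5:**
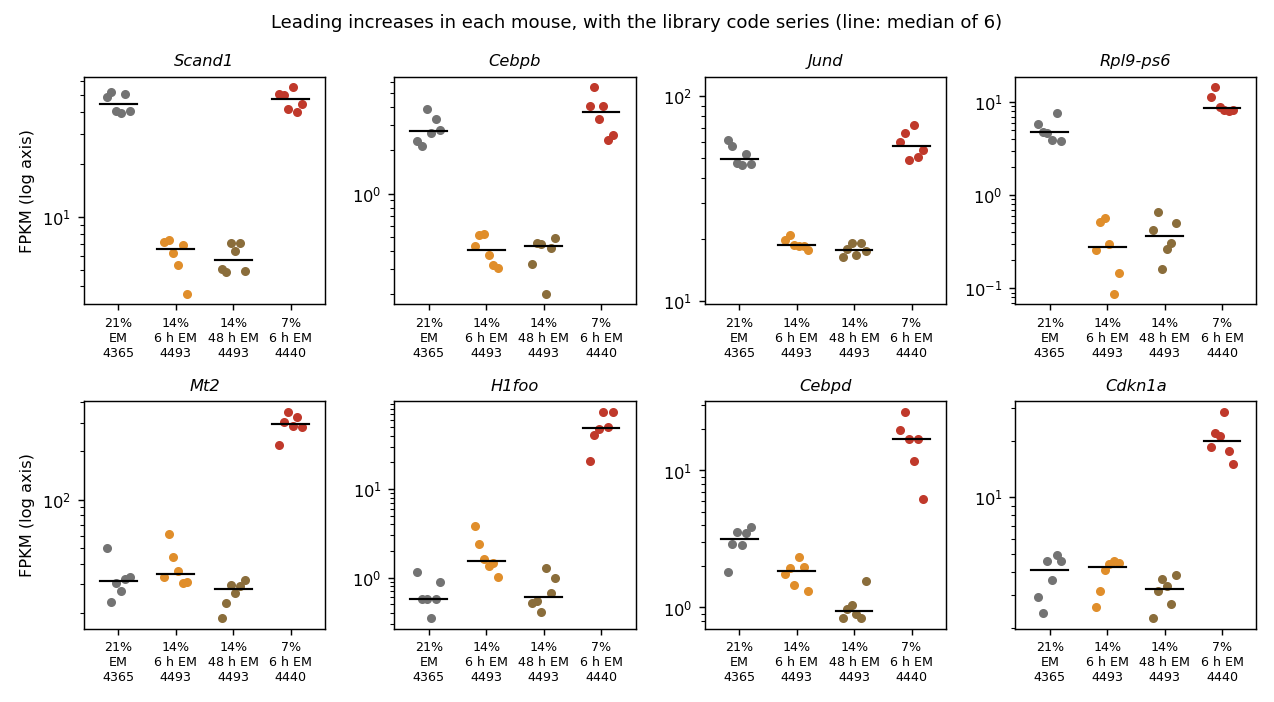
FPKM (log axis) of 8 genes with large increases in each mouse of Normoxia, 14-06h-ZH, 14-48h-ZH and 07-06h-ZH, with the library code series under each group and the median of 6 as a line. In the upper row (Scand1, Cebpb, Jund, Rpl9-ps6) both 14% groups are low and normoxia is nearer to 7%, and in the lower row (Mt2, H1foo, Cebpd, Cdkn1a) only the 7% mice stand high. For Cebpd both 14% groups also lie lower than normoxia in median.

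A further set of leading genes was high in the 7% mice alone of these 4 groups. H1foo, the linker histone of oocytes, was between 20.5 and 74.3 FPKM at 7%, median 48.8, and between 1.02 and 3.84 at 14%, median 1.53. Its normoxic levels ran from 0.348 to 1.16 (median 0.576) and those of 14-48h-ZH from 0.412 to 1.28 (median 0.604) (log2 fold change 4.66 ± 0.38, adjusted p = 3.2e-06 for 7% over 14%). Obox6, a homeobox gene known from oocytes and early embryos, was between 2.85 and 4.91 FPKM at 7%, median 3.77, and between 0.115 and 0.399 at 14%, median 0.246 (log2 fold change 3.46 ± 0.21, adjusted p = 3.7e-09), with a normoxic median of 0.268. Olfr1393, an olfactory receptor gene, was between 1.47 and 3.62 FPKM at 7%, median 2.52, and between 0.045 and 0.372 at 14%, median 0.141 (log2 fold change 3.30 ± 0.27, adjusted p = 7.6e-08), with a normoxic median of 0.0815. Obox6 shares 77.6% of its transcript with Obox6-ps1 at 95.7% identity and Olfr1393 32.6% with Olfr1392 at 95.4%, so both values are uncertain. No code series other than EM4440 holds 7% mice, so for these genes too dose and series cannot be told apart.

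Chaperones were lower at 7%. Of 26 heat shock proteins and chaperonins 16 were lower and 3 higher, with a median of -0.17. Hspa8, the constitutive chaperone HSC70, was between 235 and 277 FPKM at 7%, median 253, and between 356 and 499 at 14%, median 412 (log2 fold change -0.74 ± 0.07, adjusted p = 3.5e-07). Its normoxic median was 475, above both doses. Hspa1a, the inducible HSP70, had medians of 3.86 at 7%, 6.51 at 14% and 12.1 in normoxia (log2 fold change -0.79 ± 0.11, adjusted p = 2.1e-05), and Chordc1, an HSP90 co-chaperone, of 24.4, 35.4 and 46.0 (-0.61 ± 0.09). Cct3, a chaperonin subunit, was lower (-0.33 ± 0.04). Hspe1, the small mitochondrial chaperonin, was higher at 7% than at 14% by 0.43 ± 0.07, with overlap, and its normoxic levels (31.8 to 37.0) lay above both doses.
In the integrated stress and unfolded protein response 8 of 24 genes were lower and 5 higher, against 19.6% and 25.8% of all genes. The endoplasmic reticulum chaperones Pdia4 (-0.64 ± 0.07) and Hyou1 (-0.40 ± 0.05) and the asparagine synthetase Asns (-0.47 ± 0.06) were lower. Ddit4, an inhibitor of mTOR induced by hypoxia, was higher (0.55 ± 0.08), as was Atf4, the factor at the center of the stress response (0.26 ± 0.04), although the Atf4 median in normoxia (190.4) was above both doses (164 and 138). Ddit4 ran from 94.0 to 124 FPKM at 7%, 63.4 to 89.5 at 14%, 64.1 to 86.1 in 14-48h-ZH and 80.8 to 94.3 in normoxia.
Sterol synthesis was lower in 14 of 28 genes and higher in 3, with none called. Fdps, which makes farnesyl diphosphate, was between 23.2 and 27.7 FPKM at 7%, median 26.9, and between 35.8 and 42.4 at 14%, median 39.0, with a normoxic median of 39.5 (log2 fold change -0.58 ± 0.05, adjusted p = 3.9e-07). Hmgcs1 (-0.54 ± 0.07), Mvk (-0.61 ± 0.07) and Fdft1 (-0.36 ± 0.04), enzymes of the same chain, were lower, and Srebf1, a regulator of lipid synthesis, was higher (0.66 ± 0.07). The groups did not overlap for any of these 5 genes.
Histone genes of the replication-dependent class, whose transcripts mostly lack a poly(A) tail, were tested for 25 of 44 listed members, and 9 were lower and 3 higher. Hist1h2be was between 2.25 and 4.63 FPKM at 7%, median 2.9, and between 6.75 and 9.31 at 14%, median 8.56 (log2 fold change -1.37 ± 0.17, adjusted p = 1.0e-05), with a normoxic median of 8.73. Hist1h2ac (-0.57 ± 0.12), Hist1h3d (-1.15 ± 0.24), Hist1h1e (-0.86 ± 0.18) and Hist1h2bh (-1.0 ± 0.22) were lower too. Hist2h3c1, a histone H3 gene outside that list, was between 2.27 and 4.79 FPKM at 7%, median 4.39, and between 9.68 and 13.9 at 14%, median 11.4 (log2 fold change -1.52 ± 0.16, adjusted p = 1.2e-06), and since its transcript is shared with 6 other genes at 95% identity or more, its value is uncertain. Fv1, a retroviral restriction gene, was between 0.837 and 2.12 FPKM at 7%, median 1.81, and between 3.8 and 5.79 at 14%, median 5.07, with a normoxic median of 5.4 (log2 fold change -1.54 ± 0.18, adjusted p = 3.6e-06).
Of 23 interferon response genes 4 were higher and 4 lower, shares no larger than those of all genes. Oasl2 (-0.59 ± 0.11) and Ifit2 (-0.39 ± 0.08) were lower and H2-D1, a class I antigen presenter, higher (0.33 ± 0.09). In the list of dynein arms and motile cilium factors 4 of 22 genes were lower and 1 higher, the lower share being no larger than the 19.6% of all genes. Among the lower ones were Ccdc39 (-0.78 ± 0.12) and Zmynd10 (-1.05 ± 0.29), which serve the assembly of motile cilia.

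Neuronal genes of the retina differed by less than a doubling. Of 25 rod genes 11 were lower at 7% and 4 higher, with a median of -0.11. Kcnv2, a potassium channel subunit of photoreceptors, was between 63.8 and 84.5 FPKM at 7%, median 76.2, and between 114 and 136 at 14%, median 121, with a normoxic median of 137 (log2 fold change -0.70 ± 0.06, adjusted p = 3.2e-07). The guanylate cyclases Gucy2e (-0.53 ± 0.05) and Gucy2f (-0.70 ± 0.07), which restore cGMP after light, were lower as well. Guca1a, an activator of these cyclases, was higher, between 986 and 1331 FPKM at 7%, median 1108, and between 569.7 and 694 at 14%, median 625 (log2 fold change 0.84 ± 0.06, adjusted p = 3.1e-08), as was Nr2e3, which sets rod identity, at between 554 and 786 FPKM at 7%, median 658, and between 311 and 379.5 at 14%, median 342 (log2 fold change 0.95 ± 0.07, adjusted p = 2.4e-08). The normoxic median of Nr2e3 (581) was nearer to that at 7%, and that of 14-48h-ZH was 503.
Of 11 cone genes 3 were higher and 2 lower. The cone channel subunits Cnga3 (-0.78 ± 0.09) and Cngb3 (-0.70 ± 0.12) were lower, and Opn1mw, the middle-wavelength opsin, was higher (0.33 ± 0.06). Among bipolar cell genes 6 of 12 were higher and 2 lower. Cabp5, a calcium-binding protein of bipolar cells, was between 36.8 and 49.8 FPKM at 7%, median 43.2, and between 69.9 and 89.0 at 14%, median 83.5, with a normoxic median of 83.4 (log2 fold change -0.91 ± 0.09, adjusted p = 1.0e-06), and the transcription factors Isl1 (0.59 ± 0.08), Vsx1 (0.64 ± 0.11) and Otx2 (0.24 ± 0.04) were higher. Ganglion cell markers gave 3 higher, such as Sncg (0.46 ± 0.06) and Isl2 (0.68 ± 0.13), and 3 lower of 11, such as the neurofilament Nefh (-0.26 ± 0.05). Amacrine cells gave 3 and 3 of 11, horizontal cells 1 and 0 of 7, and microglia 2 and 2 of 10. Smooth muscle and pericyte markers gave 1 and 3 of 10, stromal fibroblasts 1 and 1 of 9, skeletal muscle 0 and 1 of 7, and sex-linked genes 0 and 0 of 4.
Müller glia, the radial glia of the retina, had 3 of 12 markers higher and 3 lower, near the 25.8% and 19.6% of all genes. Slc1a3, the glutamate transporter GLAST (-0.34 ± 0.04), and Kcnj10, the potassium channel Kir4.1 (-0.51 ± 0.07), were lower, and Hes1, a Notch target, higher (0.50 ± 0.10).

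Several of the leading decreases stood beside lower markers of tissue outside the neural retina. Lens markers were lower at 7% for 14 of 15 tested genes (median -5.20), and 0 of them passed without the 3 lens-rich mice of the 14% group or without the 3 haemoglobin-rich mice of the 7% group. The median was -2.52 and -4.29 in these settings, which keep fewer mice. Cryaa, a lens crystallin, was between 0.0695 and 49.1 FPKM at 7%, median 4.57, and between 13.3 and 14800.0 at 14%, median 4697, with overlap (log2 fold change -8.38 ± 2.17, adjusted p = 0.0094, and -4.58 without the lens-rich mice). Mip, the lens aquaporin (-5.74 ± 2.12), and Bfsp1, a filament protein of lens fibers (-4.13 ± 1.32), followed it, at -1.06 and -1.45 without these mice, where neither passed. Arsi, a sulfatase, was 7.63, 9.59 and 9.72 FPKM in the 3 lens-rich mice and 0.962 to 1.51 in the other 14% mice, against 0.196 to 0.81 at 7% (log2 fold change -2.52 ± 0.64, adjusted p = 0.0079). Erich5 (-2.28 ± 0.59) and Fat1, an atypical cadherin (-1.69 ± 0.50), were high in the same 3 mice, at 14.0 to 15.9 and 9.77 to 11.4 FPKM. Without them the estimates were -1.14 for Arsi, -0.96 for Erich5 and -0.54 for Fat1, each still past the test, whereas without the haemoglobin-rich mice none of these 3 passed (-2.68, -2.23 and -1.61).
Epithelial genes were lower at 7% too. Of 14 tested markers of cornea and conjunctiva 8 were lower, 5 without the lens-rich mice and 6 without the haemoglobin-rich mice. Krt15, a basal keratin, was between 0 and 0.977 FPKM at 7%, median 0.244, and between 2.6 and 7.46 at 14%, median 4.6 (log2 fold change -3.66 ± 0.52, adjusted p = 1.1e-04), with a normoxic median of 1.09 and 4.25 in 14-48h-ZH. Cbr2, a carbonyl reductase, was between 0.369 and 1.72 FPKM at 7%, median 1.07, and between 5.35 and 18.9 at 14%, median 9.03 (log2 fold change -3.18 ± 0.40, adjusted p = 5.6e-05), and Krt4, a keratin of wet epithelia, reached at most 0.949 FPKM (-2.26 ± 0.29). Aldh3a1, the corneal aldehyde dehydrogenase, was lower (-2.93 ± 0.93) but did not pass without the lens-rich mice (-1.03). Calml3, a calmodulin-like protein of epithelia, was between 0.911 and 3.69 FPKM at 7%, median 2.49, and between 6.05 and 14.2 at 14%, median 8.82 (log2 fold change -2.09 ± 0.36, adjusted p = 5.7e-04), and Nccrp1, known from squamous epithelium, between 0.137 and 1.04 FPKM at 7%, median 0.609, and between 1.17 and 2.64 at 14%, median 2.04 (log2 fold change -1.74 ± 0.30, adjusted p = 1.9e-04). In normoxia Cbr2 ran from 0.987 to 2.42 FPKM, Calml3 from 3.13 to 8.19 and Nccrp1 from 0.287 to 1.28. In 14-48h-ZH these genes ran from 3.72 to 7.86, 5.19 to 12.4 and 1.17 to 2.33. BC100530, a stefin-family gene, differed by -2.5 ± 0.86, but its transcript is 96.9% identical to Stfa1 and its estimate without the haemoglobin-rich mice was -0.85.
Blood and pigment genes were higher at 7%. Hbb-bs, a beta globin, was between 60.7 and 1169 FPKM at 7%, median 325, and between 20.49 and 51.6 at 14%, median 32.8 (log2 fold change 3.10 ± 0.74, adjusted p = 0.0059; 1.57 without the haemoglobin-rich mice), and 5 of 6 red blood cell markers were higher, 4 without the haemoglobin-rich mice and 0 without the lens-rich ones. The median of the red blood cell markers was 2.72, 1.06 without the haemoglobin-rich mice and 2.79 without the lens-rich ones. Of 14 pigment cell markers 6 were higher, 2 without the haemoglobin-rich mice and 1 without the lens-rich ones. Their median was 0.83, 1.10 and 1.48 in the same order. These settings keep fewer mice, so counts past the test can fall where the median does not. Ttr, transthyretin, was between 52.2 and 227 FPKM at 7%, median 120.1, and between 3.23 and 164 at 14%, median 10.5 (log2 fold change 2.91 ± 0.94, adjusted p = 0.027), Lrat, an enzyme of the visual cycle, between 1.51 and 12.1 FPKM at 7%, median 5.85, and between 0.168 and 7.44 at 14%, median 0.28 (log2 fold change 2.79 ± 0.91, adjusted p = 0.029), and Rdh5, a retinol dehydrogenase, differed by 0.86 ± 0.27, all with overlap and none past the test without the lens-rich mice. On recovered reads, edgeR gave 1.43 for Ttr and 1.60 for Lrat, and neither passed. The part of these tissues in the differences of other genes was not tested beyond the counts without the named mice.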

How the data were processed

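RNA from 1 retina per mouse was sequenced on Illumina libraries. Per the labels and the methods of the study, the authors aligned reads to GRCm38.p5 with STAR. The deposited FPKM values (25700 genes) are used here, and how lengths and totals were set is not given in the sources used here. The deposited signal columns hold normalized counts, gene counts that the authors scaled per library, and whole reads were recovered from them (100% of low values within 0.1 of a whole read) for 10 of the 12 libraries compared (not replicate 4 of 07-06h-ZH and replicate 6 of 14-06h-ZH). Strand use in counting is not given in the sources used here. A gene had to be above 0 in at least 3 of the 6 mice of both groups. The test was limma 3.58.1 (trend and robust options, R 4.3.3) on log2(FPKM + 0.1), which understates the change of low genes, with Benjamini-Hochberg adjustment. Calls need both an adjusted p of 0.05 or less and a change of 1 or more on the log2 scale. Crystallins, haemoglobins, Rpe65, Mlana and Pmel (29 genes, 22 tested) were left out of the counts. In simulated data 99% of genes changed by 1.5 (log2) in this comparison were recovered among 17406 tested. The changed genes were drawn only from those with a mean normalized count above 20 at 14%. All genes had the same simulated spread between mice, so this share does not cover low genes or genes with few high mice. The labels do not say whether mice of a group shared a chamber or day, so p-values measure the spread between these mice. None of the 20 pairs of libraries of a group with recovered reads agreed within sampling noise (chi-square per gene of at least 4.46), and pairs with the other 2 libraries were not compared.

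The comparison, the 23 pathway lists and 16 marker lists and the rule for named genes were chosen with earlier results of these data known. Named are the 12 largest increases and 12 largest decreases among 274 called genes without overlap whose mean FPKM reached 1, up to 5 members per list with the smallest p, the genes the study measured by PCR or names for 7%, and, chosen after their values were seen, Epo, Mip, Bfsp1, Aldh3a1 and the genes of the closing observations. A few named genes are not reported here. Near copies were sought with BLAST+ 2.17.0 in GENCODE M21 transcripts, from which GC content also came (25587 genes, 99.6%). Promoters came from RefSeq. Alternatives were other pseudocounts (1 and 0.01), filters, scalings and models, edgeR 4.0.16 and DESeq2 1.42.0 on recovered reads, each mouse left out, and, chosen after seeing the data, the lens-rich or haemoglobin-rich mice left out, protein-coding genes only, and limma on the 10 libraries with recovered reads. Python 3.11.15 with pandas 2.3.3 was used for summaries.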

Additional observations from a re-analysis of the deposited data

Results flagged for a closer look

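Of 344 sets of 6 mice, 2 for each gene named, 24 held a mouse that stood apart, its gap to the next mouse being larger than Dixon's 95% critical share of the group's range, where chance gives about 1 in 20. Each value below is the FPKM of that mouse against the mouse nearest to it. Replicate 2 of 14-06h-ZH stood above the others of its group for Hspe1 (22.7 against 19.98), Mt1 (70.4 against 46.8), Mt3 (31.1 against 22.4), Cry1 (59.0 against 52.3), Rdh5 (92.9 against 53.01), Ttr (164 against 49.3), Lrat (7.44 against 2.18). This mouse also had the highest sum of pigment cell markers of its group (726 FPKM), whose part was not tested. Replicate 1 of 07-06h-ZH stood apart for Ak4 (81.5 against 70.2), Plod3 (20.8 against 17.5), Kcnj8 (2.37 against 1.94), C3 (3.73 against 3.04), Hmgb2 (99.9 against 129), the lowest of its group for Hmgb2 and the highest for the others. In 07-06h-ZH single mice also stood apart for Adm in replicate 2 (10.2 against 5.73), Kdm3a in replicate 5 (89.7 against 82.3), Hspe1 in replicate 3 (21.8 against 26.2), Ciart in replicate 4 (45.5 against 33.2), Oasl2 in replicate 6 (9.04 against 6.9), Ifit2 in replicate 3 (6.0 against 5.0), Krt4 in replicate 4 (0.199 against 0.0475), Cryaa in replicate 6 (49.1 against 5.66). In 14-06h-ZH they did for Stat3 in replicate 4 (47.9 against 42.5), Cnga3 in replicate 6 (7.95 against 6.41), Egfl7 in replicate 5 (7.52 against 10.2), Arrdc3 in replicate 5 (54.2 against 41.6).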

How the results depend on the processing

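Of 172 genes named, 153 kept their direction and their side of an adjusted p of 0.05 under each of the 19 alternatives, and with each mouse left out, wherever they were tested (6 genes could not be tested under 1 of them). Of the rest, 16 lost significance somewhere, above all genes of lens, cornea, pigment and blood with few high mice, and C3 and Timp1, which did not pass the test, changed sign. Of the 71 named genes with a log2 difference of at least 1 in size, 15 came under 1 under at least 1 alternative or with 1 mouse left out. Timp3 and Timp1 passed the test under some alternatives (2 and 4). The count of called genes moved by more than 1.5 times from 656 (484 higher, 172 lower) only under these settings: a pseudocount of 1 gave 190 (158 and 32), a mean FPKM of at least 1 gave 361 (262 and 99), and a pseudocount of 0.01 gave 264 lower. The 3 lens-rich mice left out gave 99 lower. With each mouse left out in turn the counts were 588 to 750 in all, 443 to 513 higher and 129 to 252 lower. Other tools gave 524 higher and 215 lower (edgeR) and 504 and 250 (DESeq2), against 441 and 137 for limma on the same 10 libraries, where 555 and 558 of the 656 main calls were shared by edgeR and DESeq2. Protein-coding genes alone gave 434 and 155. The replicate block gave 627 calls (463 and 164), and with GC correction 587. Same-numbered mice of the groups correlated at -0.120 to 0.205 in their deviations from the group means. This does not decide whether replicate numbers pair the mice, since numbers 1, 2 and 3 share Y-linked expression in both groups. C3 was 0.43 without the lens-rich mice, 0.045 in the 10 libraries, 0.0044 with a pseudocount of 0.01 and -0.23 to 0.14 with a mouse left out, and Timp1 was -0.069 without the haemoglobin-rich mice. Calls at low FPKM rest on few reads, and 2 libraries could not enter the tests on reads.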

Other observations

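Further called genes, chosen after their values were seen, fell into the same arrangements. Hmgb2, a chromatin protein, was between 99.9 and 141 FPKM at 7%, median 136, and between 23.0 and 35.6 at 14%, median 29.5, with medians of 43.6 in normoxia and 29.9 in 14-48h-ZH (2.15 ± 0.12 for 7% over 14%). Tmem255b, a membrane protein, was between 9.4 and 14.2 FPKM at 7%, median 12.4, and between 2.1 and 3.52 at 14%, median 3.0 (2.00 ± 0.13), with 3.22 in normoxia. Arrdc3, an arrestin-domain protein, was between 85.0 and 138 FPKM at 7%, median 120.5, and between 34.5 and 54.2 at 14%, median 37.9 (1.53 ± 0.14), and Odc1, the first enzyme of polyamine synthesis, between 193 and 255 FPKM at 7%, median 242, and between 82.8 and 112 at 14%, median 96.5 (1.29 ± 0.07), with normoxic medians of 38.5 and 111. Socs3, the feedback inhibitor of STAT3 signaling, was between 5.63 and 24.0 FPKM at 7%, median 12.3, and between 2.98 and 4.32 at 14%, median 3.57 (1.58 ± 0.31), with 3.8 in normoxia. In these 5 genes the 7% mice stood above the medians of the other 3 groups.

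Lars2, Zfp771 and Pcsk1n were low in both groups of series EM4493 and similar at 7% and in normoxia. Lars2, the mitochondrial leucyl-tRNA synthetase, had medians of 301 at 7%, 116 at 14%, 114 in 14-48h-ZH and 343 in normoxia, and its transcript has a GC content of 51.2%. Zfp771, a zinc finger gene with a GC content of 68.7%, had 20.6, 4.51, 4.59 and 17.2, and Pcsk1n, an inhibitor of prohormone convertase, 59.2, 16.1, 16.5 and 54.5. With GC correction the difference of 7% over 14% was 1.15 for Zfp771 in place of 2.14, and 1.46 for Lars2 in place of 1.45.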
